A study of Mus musculus with 4 samples.

Results

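The genes described here are the mouse genes named Zfp followed by digits only, most of which encode zinc finger proteins of the C2H2 kind. Members were the protein-coding genes of this name on the autosomes with an annotated span of 10 kb or longer in the GENCODE annotation of mm9. There were 233 of them among 12965 autosomal protein-coding genes of that length. Of 344 protein-coding genes of such a name, 104 were left out for a shorter span and 7 for lying on a sex chromosome. The names Zfp664 and Zfp708 were each given to a pair of gene identifiers, so the 233 members carry 231 names. Just below the span limit lay Zfp259, Zfp397 and Zfp791, with 96.3%, 96.9% and 0% of the span in broad regions in both strains. Just above it lay Zfp775 (24.9% in B6 and 38.0% in KI), Zfp445 (100% in both) and Zfp771 (82.7% in both).

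The study performed H3K36me3 ChIP-seq on germ cells of 2 mouse strains, labelled as spermatocytes, at 14 days post-partum (dpp). B6 is C57BL/6J. KI is B6.Cg-Prdm9<tm1.1Kpgn>/Kpgn, a knock-in on the B6 background in which the last exon of Prdm9, encoding the zinc fingers of PRDM9, comes from the CAST/EiJ allele. Neither group carried a treatment, and the inputs are labelled 15 dpp. The labels write the antibody as H3K36me6, while the sample titles and the study's methods write H3K36me3. Reads of 2 biological replicates were merged per strain before peaks were called, so each strain has 1 list of broad (unrefined) regions and 1 list of narrow (refined) peaks. No value below therefore has a replicate error, and no test between strains or gene groups was made. Intervals on shares are Wilson 95% intervals and those on medians are 95% order-statistic intervals, and both cover the number of genes or peaks only. There were 58502 refined peaks in the B6 list against 72692 in that of KI, and merged broad regions covered 445.9 Mb and 425.4 Mb. As no heights are listed, the depth under any 1 peak is unknown, but the KI libraries were sequenced more deeply. In a ChIP-seq of a cell population, more marked cells and more mark per cell cannot be told apart. All 11 spermatocyte markers found in the annotation, among them Sycp1, Sycp3 and Dmc1, were at least 50% covered in both strains, and none of 6 markers of other tissues was.

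A C2H2 finger is a short protein fold held around a zinc ion by cysteine and histidine side chains, and an array of fingers reads DNA. Many such genes also encode a KRAB domain, which recruits TRIM28 and SETDB1 to silence transposable elements and imprinted loci. They are a large family in mammals, often arranged in tandem clusters, and the array is commonly encoded in a single long last exon. H3K36me3 is laid down by SETD2 along the bodies of transcribed genes, usually towards the 3′ end, and in spermatocytes also by PRDM9 at recombination hotspots. PRDM9 is itself a zinc finger protein.

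The members lay on all 19 autosomes, with 50 on chromosome 7, 31 on chromosome 17 and 25 on chromosome 13. With neighbours at most 250 kb apart joined, 128 members formed 32 runs and 105 stood alone. Translation of the annotated coding sequences gave at least 1 finger in 226 members and none in 7, up to the 36 of Zfp142. All fingers lay within the last exon in 164 members. Coding sequence at or near such an array is printed here from places where last exon peaks of both strains overlapped, because refined peaks were frequent in these exons. The 4 stretches are from the widest such overlaps that hold coding sequence. They are at most 300 bases, in mm9, and are read on the gene strand. Capitals mark matches to ACNGGNGANAANCC, the codons of the linker that joins neighbouring fingers. Where an overlap was longer than 300 bases, the stretch with most matches was chosen after the sequences had been seen, so the number of matches in these stretches is an illustration only.
Zfp607 (chr7:28662791-28663090, plus strand): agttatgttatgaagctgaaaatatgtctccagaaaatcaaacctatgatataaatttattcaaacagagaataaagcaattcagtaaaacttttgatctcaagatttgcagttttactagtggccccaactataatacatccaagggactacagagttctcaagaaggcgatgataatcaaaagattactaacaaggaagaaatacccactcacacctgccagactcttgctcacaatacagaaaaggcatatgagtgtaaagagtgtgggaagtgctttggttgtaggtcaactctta
Zfp738 (chr13:67771363-67771662, minus strand): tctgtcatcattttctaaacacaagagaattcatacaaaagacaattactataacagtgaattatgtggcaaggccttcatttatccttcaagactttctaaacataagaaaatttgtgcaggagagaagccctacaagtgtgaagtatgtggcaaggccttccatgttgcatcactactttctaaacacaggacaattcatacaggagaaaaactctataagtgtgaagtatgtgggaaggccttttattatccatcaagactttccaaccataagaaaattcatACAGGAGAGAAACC
Zfp937 (chr2:150064015-150064314, plus strand): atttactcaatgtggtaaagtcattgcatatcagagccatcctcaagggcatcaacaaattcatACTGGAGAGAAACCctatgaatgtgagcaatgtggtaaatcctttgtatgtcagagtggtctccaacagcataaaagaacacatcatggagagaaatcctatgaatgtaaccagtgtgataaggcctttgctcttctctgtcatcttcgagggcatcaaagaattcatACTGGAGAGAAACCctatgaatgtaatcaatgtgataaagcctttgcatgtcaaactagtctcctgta
Zfp759 (chr13:67239667-67239966, plus strand): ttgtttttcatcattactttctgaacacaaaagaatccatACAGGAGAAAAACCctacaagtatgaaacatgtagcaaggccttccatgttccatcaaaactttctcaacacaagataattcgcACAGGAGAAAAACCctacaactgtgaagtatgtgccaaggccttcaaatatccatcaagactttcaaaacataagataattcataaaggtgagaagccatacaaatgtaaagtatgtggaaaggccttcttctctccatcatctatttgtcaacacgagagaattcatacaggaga

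The stretches of Zfp937 and Zfp759 each hold 2 matches, 168 and 84 bases apart, that of Zfp738 holds 1, and that of Zfp607 holds 0. Counted from the first to the last finger found, the array takes up all 300 bases of the Zfp738 stretch, 215 of the Zfp937 stretch, 155 of the Zfp759 stretch and 43 of the Zfp607 stretch. The 2 matches of Zfp759 and the first match of Zfp937 lie before the array. The distance of 84 bases is the length of 1 finger with its linker, but no finger was counted between the 2 matches of Zfp759. A fixed scan of 300 bases around every autosomal refined peak, on both strands, gives the background for these letters. The motif was found at 0.341% of all 54236 such peaks in B6 and 0.307% of 68189 in KI. It was found at 38.7% of the 124 last exon peaks of members in B6 and 42.6% of 122 in KI. In the rest of the members' spans the shares were 1.42% of 424 peaks and 0.899% of 556. The motif occurs in the last exons of 151 of 233 members (64.8%), so these shares describe where the peaks lay and not a binding site.

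Most members were covered by H3K36me3 over most of their length. The median member had 83.3% of its span in broad regions in B6 (interval 79.0% to 89.5%) and 82.0% in KI (73.9% to 87.2%). Over the other 12732 genes of the same minimum length the medians were 57.3% and 48.0%. At least 50% of the span was covered in 186 members in B6 (79.8%, 74.2% to 84.5%) and 169 in KI (72.5%, 66.5% to 77.9%). Over all 12965 genes 52.6% and 49.8% reached that level. It was reached in both strains by 168 members, beside 49.0% of all genes, and in neither by 46. The members differed little in this from one length class to another, except the longest. Those of 10 to 20 kb (n = 122) had medians of 88.1% in B6 and 86.1% in KI, beside 54.1% and 47.6% for other genes of that length. From 20 to 40 kb (n = 72) the medians were 84.6% and 84.0%, beside 73.1% and 65.8%. At 40 kb or longer (n = 39) they were 61.0% and 55.5%, beside 47.7% and 36.8%.

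**Figure D1:**
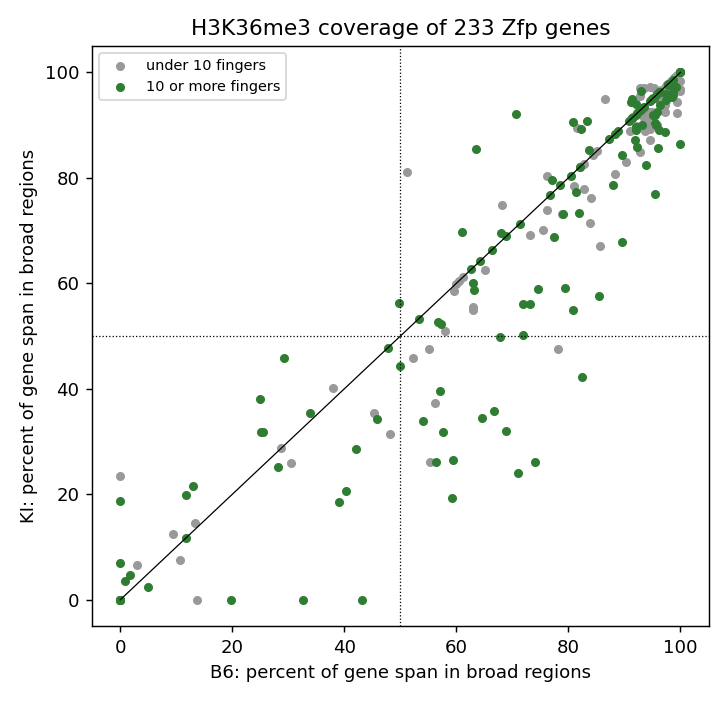
Percent of the span in broad H3K36me3 regions in B6 (horizontal axis) and KI (vertical axis) for each of 233 members, 1 point per gene, coloured by number of fingers, with the line of equality and dotted lines at 50%. Most points lie near the upper right corner, and 16 lie 25 points or more towards B6 against 1 towards KI.

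Members ranged from no mark to full coverage. The group at 90% or more in both strains had 83 members (35.6%), beside 30.2% of all genes. Zfp541 (chr7:16657291-16681677), a germ cell protein of meiotic prophase, lay at 100% in both strains, as did Zfp445 (chr9:122761032-122771246), which maintains imprints. Zfp451, a SUMO ligase, had 100% in B6 and 98.3% in KI. Zfp207, a spindle and kinetochore protein, had 99.0% in both, and Zfp346, a double-stranded RNA-binding protein, 98.9% in both. Zfp384, a transcription factor, had 98.8% in both. Each of these but Zfp451 had exactly 1 refined peak in each strain.

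Several members with known roles outside repression by KRAB were also widely covered. Zfp143, an activator of small nuclear RNA genes, had 96.2% in B6 and 94.7% in KI, and Zfp148, a transcription factor, 96.2% and 95.8%. The ubiquitin ligases Zfp91 and Zfp598 had 96.6% and 93.4%, each the same in both strains. Zfp335, needed for neural progenitors, had 96.2% in both, and Zfp318 had 97.8% in both. Among members that silence other loci, Zfp809, which acts on endogenous retroviruses, had 95.8% in B6 and 90.1% in KI, and Zfp568, a repressor of a placental Igf2 transcript, 97.7% in both. Zfp42 (Rex1), a marker of pluripotent cells, had 84.4% in both. Zfp37, known from testis, had 89.5% and 84.2%.

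At the other end, 17 members (7.30%) had under 10% in both strains, beside 29.8% of all genes. No broad region was listed in 15 members in B6 and 16 in KI, beside 22.9% and 20.4% of all genes, and 12 had none in either strain, beside 16.3%. Among members of 20 kb or longer, Zfp366 (chr13:99954778-100016992), known from dendritic cells, Zfp365, known from the nervous system, Zfp600, Zfp957 and Zfp735 had 0% in both strains and no refined peak. A trio of developmental regulators was nearly bare over very long spans. Zfp423 had 1.68% in B6 and 4.70% in KI, Zfp521 0.875% and 3.50%, and Zfp536, a repressor in neurons, 4.88% and 2.44%. Zfp462, a large neural protein with 33 fingers, was intermediate with 45.8% and 34.2%.

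The number of fingers and broad coverage were weakly related. The Spearman coefficient across the 233 members was -0.08 in B6 and -0.12 in KI, against 0.30 and 0.29 for the number of exons. Genes are not independent replicates, and members share chromosome neighbourhoods. Members in runs had medians of 81.9% in B6 and 79.1% in KI (n = 128), and those alone 91.4% and 85.7% (n = 105), with overlapping intervals in both strains. The 50% level went the other way, reached by 84.4% and 73.4% of members in runs and 74.3% and 71.4% of those alone. No broad region was listed for 3.12% of members in runs in each strain, and for 10.5% and 11.4% of those alone.

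Along the gene, coverage was low at the start and high to the end. With each span cut into 10 equal parts from 5′ to 3′, mean coverage was 34.1% in B6 and 30.2% in KI in part 1, and 79.7% and 79.2% in part 10. In the first kb it was 15.4% and 14.2%, and in the last kb 78.6% and 77.8%. Other genes had 11.4% and 11.1% in the first kb and 58.0% and 55.9% in the last. Beyond the 3′ end, mean coverage in B6 went from 73.6% in the first kb to 33.1% in the fifth, and in KI from 67.2% to 27.7%.

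**Figure D2:**
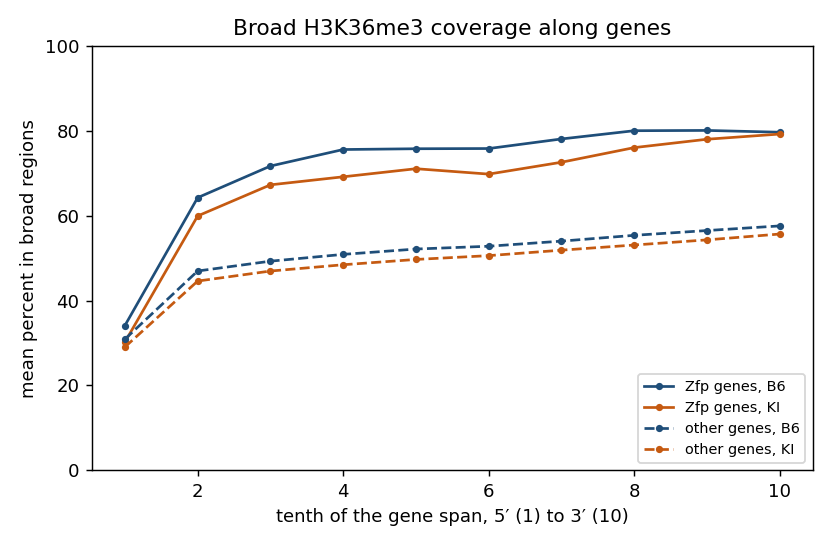
Mean percent in broad regions (vertical axis) for each of 10 equal parts of the gene span from 5′ to 3′ (horizontal axis), for Zfp genes (solid) and other genes (dashed) in B6 and KI. The lines start close together, at 34.1% and 30.2% for Zfp genes, and the Zfp lines end near 79%.

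With repeats included, the broad list of each strain had as many lines as its refined list (58502 for B6, 72692 for KI). The paper describes refined peaks as places of local enrichment inside broad regions. Members held 548 in B6 and 678 in KI, or 65.8 and 81.2 per Mb of span, beside 43.2 and 52.3 in other genes. At least 1 was found in 215 members in B6 (92.3%) and 210 in KI (90.1%), beside 72.6% and 75.6% of all genes. These shares largely restate the presence of a broad region and are not a separate result. A broad region was listed in 218 members in B6 (93.6%) and 217 in KI (93.1%), beside 77.1% and 79.6% of all genes. Exactly 1 peak was held by 114 members in B6 and 96 in KI, beside 32.8% and 28.4% of all genes. The median peak was 303 bp wide in B6 and 322 bp in KI. The longest member, Zfp407, held the most, 45 in B6 and 66 in KI. It was followed by Zfp827 (25 and 31), Zfp704 (26 and 21), Zfp277 (23 and 22) and Zfp462 (10 and 19), all of which span over 40 kb.

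The last exon, which carries the array in most members, held refined peaks in a larger share of members than of other genes. A last exon peak was present in 118 members in B6 (50.6%, 44.3% to 57.0%) and 110 in KI (47.2%, 40.9% to 53.6%), beside 14.6% and 15.4% of all genes. It was present in both strains in 79 members, beside 6.86% of all genes, and in neither in 84. The last exon made up 7.55% of the members' summed span and 2.18% of that of other genes, so peaks were also counted per length. Members had 195.7 peaks per Mb of last exon in B6 and 192.5 in KI, against 55.2 and 72.1 per Mb in the rest of the gene. In other genes these densities were 93.1 and 101.1 against 42.1 and 51.2.

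The difference from other genes was present within classes of last exon length, with overlapping intervals for the shortest. For last exons under 1 kb (n = 29) peaks were found in 13.8% (B6) and 17.2% (KI), beside 7.2% and 7.8% in other genes. From 1 to 2.5 kb (n = 94) the figures were 53.2% and 36.2%, beside 16.8% and 16.6%. At 2.5 kb or longer (n = 110) they were 58.2% and 64.5%, beside 24.2% and 27.4%. Of members with at least 50% coverage, 54.3% (B6) and 48.5% (KI) had one, beside 18.2% and 19.9% of such other genes, where the last exon made up 8.90% and 8.95% of the span in members against 3.15% and 3.28%. Within those, for last exons of 1 to 2.5 kb, the KI share was 34.4% (23.9% to 46.6%). Its interval overlapped that of the 22.4% (20.8% to 24.1%) of other genes. The shares at 50% coverage or more were also divided by the last exon's share of the span. This gave 6.10 for members and 5.79 for other genes in B6, and 5.42 and 6.06 in KI. For last exons of 1 to 2.5 kb it gave 10.3 and 6.89 in B6, and 6.29 and 6.89 in KI. At 2.5 kb or longer it gave 4.62 and 4.47 in B6, and 4.96 and 5.13 in KI. Among genes with exactly 1 refined peak, the peak touched the last exon in 63 of 114 members in B6 (55.3%) and 38 of 96 in KI (39.6%), beside 13.1% and 11.6% of such other genes. In these genes the last exon made up 13.02% of the span in B6 and 13.8% in KI for members, against 3.67% and 3.79% for other genes. Divided by that share of the span, the values were 4.24 for members and 3.56 for other genes in B6, and 2.88 and 3.08 in KI. That share depends on the length of the gene as well as on that of the last exon. The cause of the gap was not tested. In genes of other names with 5 or more fingers and exactly 1 peak, it touched the last exon in 40.4% (28.6% to 53.3%) in B6 and 30.2% (18.6% to 45.1%) in KI. These intervals overlapped the members' (46.1% to 64.1% and 30.4% to 49.6%). Divided by the last exon's share of the span, the values of these genes were 4.58 and 2.80, beside the members' 4.24 and 2.88.

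**Figure D3:**
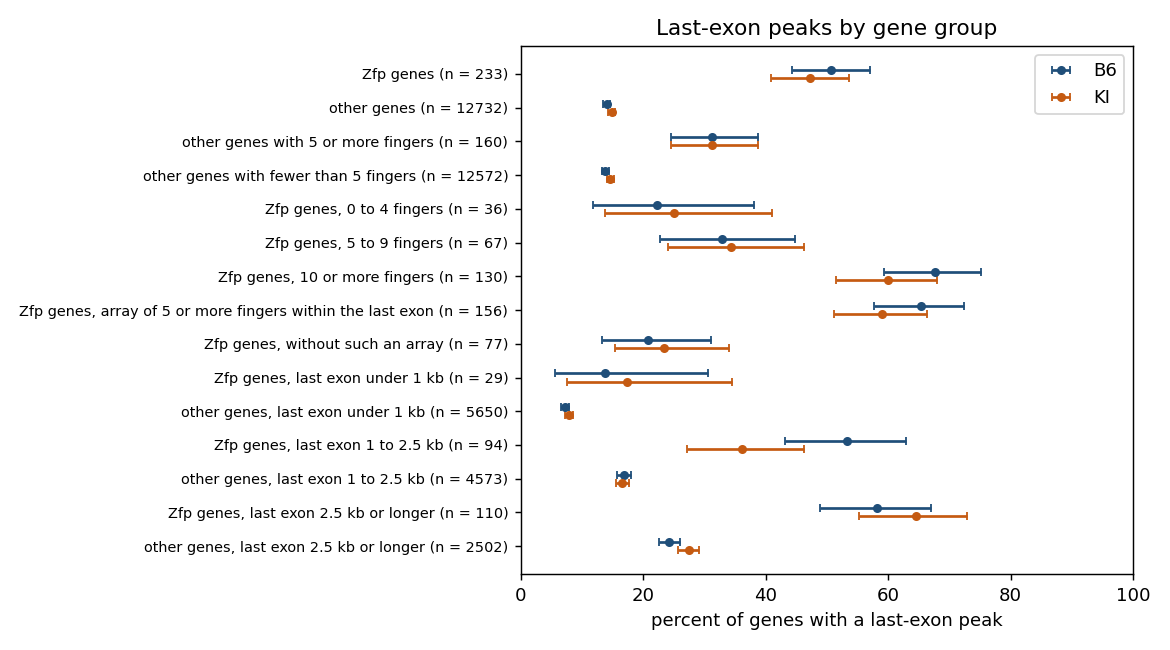
Percent of genes with a refined peak in the last exon (horizontal axis) for groups of Zfp and other genes in B6 and KI, points with Wilson 95% intervals over genes. Zfp genes lie at 50.6% and 47.2%, those with 10 or more fingers at 67.7% and 60.0%, and all other genes together below 15%.

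Members with longer arrays had a last exon peak more often. With 0 to 4 fingers (n = 36) 8 had one in B6 (22.2%) and 9 in KI. With 5 to 9 fingers (n = 67) 32.8% and 34.3% did, and with 10 or more (n = 130) 67.7% and 60.0%. The last exon was also longer in the last class, with a median of 2536 bp against 2295 bp and 1898 bp. Of the 156 members with an array of at least 5 fingers inside the last exon, 65.4% in B6 and 59.0% in KI had a last exon peak, against 20.8% and 23.4% of the other 77 members. The last exon made up 13.98% of the summed span of the 156 but 3.47% of that of the 77. Per Mb of last exon, the 156 had 228.4 peaks in B6 and 217.4 in KI, against 112.2 and 129.0. A peak lay on the array itself in 71 of the 156 in B6 (45.5%) and 70 in KI (44.9%). The array made up 39.0% of the length of these exons. Of the last exon peaks in members with all fingers there, 67.9% of 106 in B6 and 72.0% of 100 in KI overlapped the array. An overlap of 1 bp was enough, so neither share can be set directly against the array's share of exon length. Genes of other names with 5 or more fingers (n = 160) had a last exon peak in 31.2% in each strain, and median broad coverage of 59.9% and 51.7%.

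Most last exon peaks overlapped the coding part, with midpoints more often towards the exon's 5′ end. The median last exon of members was 2436 bp long, and its median coding part 1316 bp. In B6, 103 of 124 overlapped coding sequence (83.1%) and in KI 97 of 122 (79.5%). The midpoints of last exon peaks were at a median of 660.5 bp from the exon's 5′ end in B6 and 839 bp in KI. As a share of the exon's length the medians were 22.5% and 29.6%.

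Last exon peaks were found in the same place in both strains more often than the members' other peaks. Of the B6 last exon peaks 32.3% (24.7% to 40.9%) overlapped a KI refined peak, against 15.8% (12.6% to 19.6%) in the rest of the gene. Of the KI last exon peaks 33.6% (25.8% to 42.4%) overlapped a B6 peak, against 12.1% (9.60% to 15.0%). In other genes the last exon shares were 24.9% and 22.6%. Overlapping last exon peaks were found in 40 members, with coding sequence in 34 and the array in 26, and a median overlap of 228 bp. The widest was in Zfp607, an overlap of 600 bp between a B6 peak of 637 bp and a KI peak of 854 bp. Zfp738 followed with 589 bp, Zfp937 with 419 bp, Zfp706 with 391 bp and Zfp759 with 373 bp. That of Zfp706, which has 1 finger, lay outside the coding sequence.

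Broad coverage was close in the strains for most members. It was equal in 80 (34.3%), higher in B6 in 113 (48.5%) and higher in KI in 40 (17.2%), beside 33.9%, 43.2% and 22.9% of all genes. Broad regions start on a regular grid, so equal values do not show agreement at single bases. The 80 include the 12 members with no broad region in either strain. The Spearman coefficient between strains across the 233 members was 0.94. A difference of at least 25 points towards B6 was found in 16 members (6.87%), beside 3.06% of all genes, and towards KI in 1, beside 1.02%. The 50% level was reached in B6 only by 18 members, beside 3.58% of all genes, and in KI only by 1, beside 0.787%. That 1 was Zfp677 with 49.8% in B6 and 56.3% in KI.

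The largest differences towards B6 were in Zfp429 (chr13:67490263-67500703, 74.1% against 26.2%), Zfp607 (chr7:28647576-28664586, 71.0% against 24.02%), Zfp9 (chr6:118411968-118429338, 43.2% against 0%), Zfp708 (82.5% against 42.3%) and Zfp940 (59.2% against 19.3%). The largest towards KI were in Zfp651 (chr9:121669151-121680860, 51.2% against 81.1%), Zfp239 (0% against 23.4%), Zfp94 (63.5% against 85.4%), Zfp28 (70.7% against 92.1%) and Zfp30 (0% against 18.7%). All 16 members with a difference of 25 points or more towards B6 had at least 5 fingers, beside 84.5% of all members, and 13 (81.2%) were in runs, beside 54.9%. In 11 of them (68.8%) the last exon was at least 90% covered in both strains, beside 76.0% of all members. The strains differed over the body of these 16 genes. Mean coverage of part 2 of 10 was 37.6% in B6 and 2.76% in KI, while that of part 10 was 79.5% and 74.0%.

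**Figure D4:**
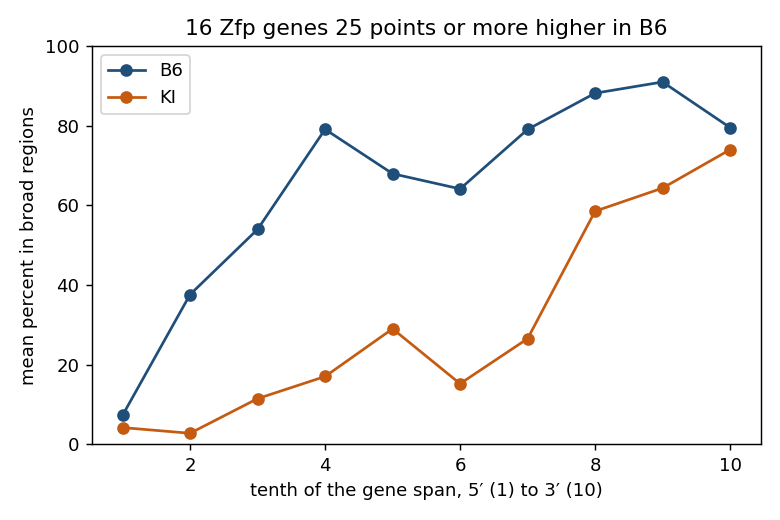
Mean percent in broad regions (vertical axis) for each of 10 equal parts of the span from 5′ to 3′ (horizontal axis) over the 16 members 25 points or more higher in B6, which were chosen by that difference. B6 and KI lie far apart in part 2 (37.6% and 2.76%) and closer in part 10 (79.5% and 74.0%).

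Markers of Sertoli cells, the supporting cells of the testis tubule, also differed between the lists. Broad coverage was higher in B6 for 5 of the 6 Sertoli markers, with Wt1 at 71.7% against 8.49%, Sox9 at 45.2% against 0%, Amh at 42.0% against 0.333%, Clu at 29.7% against 0% and Gata4 at 19.6% against 8.25%, and Inha at 0% in both. Sequencing depth differed between the strains as well. The part of either in the members' differences was not tested.

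Of the 16, 6 lay in 1 run of 15 members on chromosome 13 (chr13:67139530-67927937). Its median coverage was 57.6% in B6 and 35.8% in KI, with 11 members higher in B6 and 1, Zfp748, higher in KI (82.3% against 89.2%). Zfp457 had 0% in both strains, while Zfp712 (66.3%) and Zfp759 (53.3%) were the same in both. The last exon was wholly covered in both strains in 9 of the 15, among them Zfp429, Zfp273 and both genes named Zfp708. The annotated spans of Zfp595, Zfp953 and Zfp456 overlap, so these values share bases. The 6 other genes of 10 kb or longer within the run had medians of 77.5% and 63.4%. The run of 15 members at chr17:21520712-22593656 had medians of 91.4% and 85.2%, and that of 12 members at chr7:30553571-30919684 had 73.6% and 68.1%.

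**Figure D5:**
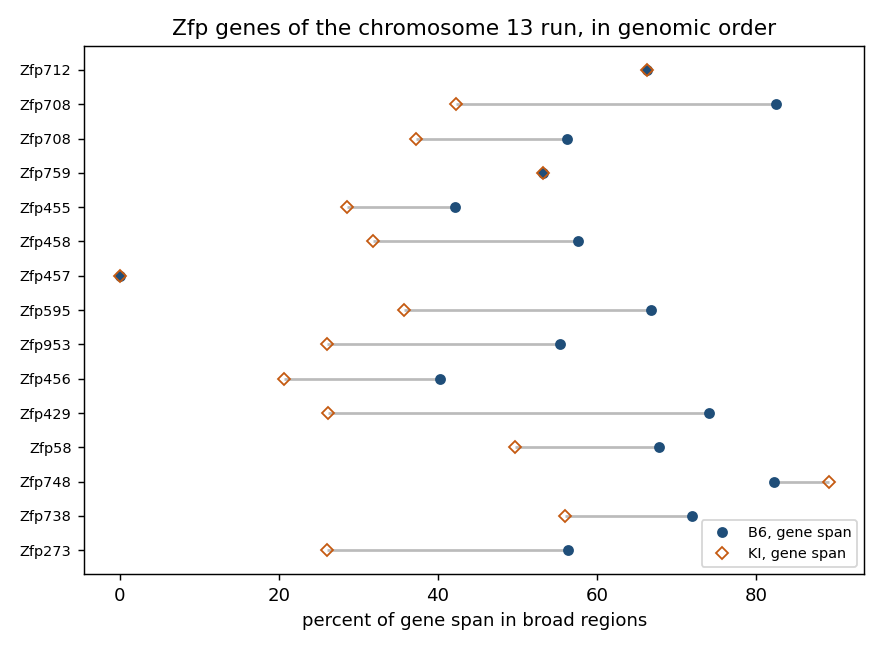
Percent of the span in broad regions (horizontal axis) in B6 (filled circles) and KI (open diamonds) for the 15 members of the chromosome 13 run, in genomic order. The B6 value is the higher in 11 genes and the KI value in 1, Zfp748.

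Reads without a unique position were discarded by the authors, and members have close copies. Uniqueness was counted by exact match, so stretches with near but not identical copies count as unique. By this count a median of 99.5% of the 100-base stretches of a member's span occurred once in the genome, but 21 members fell under 90%. Their median coverage was 56.4% in B6 and 28.8% in KI, against 86.9% and 85.3% in the other 212. Zfp97 (14.4% unique) had 12.96% and 21.6% coverage, and Zfp600 (30.5% unique), had 0% in both strains, which cannot be told apart from a lack of uniquely placed reads. A last exon peak was held by 13 of the 21 in each strain (61.9%). Of the 16 members higher in B6, 13 (81.2%) had at least 90% of the span unique, beside 91.0% of all members.

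Genes of the machinery that KRAB zinc finger proteins recruit were covered throughout. All 16 gene entries of the corepressor list had at least 50% of the span covered in both strains, beside 49.0% of all genes of 10 kb or longer. The corepressor list itself had no span limit. Trim28, the scaffold, had 92.7% in both, and the H3K9 methyltransferase Setdb1 had 98.1% in both. Dnmt1, which maintains DNA methylation, had 98.2% in both. The lowest in KI were Hdac2 with 66.5% (86.6% in B6) and Dnmt3a with 67.7%. The lowest in B6 were Dnmt3a with 75.6% and Chd3 with 85.0% (the same in KI). A last exon peak was found in 1 of the 16 in B6 and 4 in KI, beside 14.6% and 15.4% of all genes of 10 kb or longer.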

How the data were processed

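H3K36me3 ChIP-seq libraries of 2 strains (2 biological replicates each, and 1 input per strain) were aligned by the authors to mm9 with BWA 1.2.3, without reads of no unique position. The replicates were merged and broad and narrow peaks called with ZINBA against the input. The deposited lists give only chromosome, start and end positions, with no counts or heights. Starts of broad regions lie on a regular grid plus 1, so the first base of a chromosome was taken as 1 and start and end as part of the region. Inputs have no list here.

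Repeated broad regions were used once and merged. A refined peak was assigned to a gene or last exon by an overlap of at least 1 bp. The last exon was that of the protein-coding transcript with the longest coding sequence. Fingers were counted by the spacing of cysteines and histidines in translations of the GENCODE transcripts, since RefSeq proteins were not used here. Uniqueness was the share of 100-base stretches found once in mm9 by exact match, on both strands. Python 3.11.15, numpy 2.4.6, pandas 2.3.3, scipy 1.17.1, biopython 1.88, matplotlib 3.10.9 and samtools 1.23.1 were used, and the overlap and finger counts were tested on simulated data.

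Named genes were the 5 highest and 5 lowest in mean coverage (20 kb or longer), the 5 largest differences in each direction, the 5 with most refined peaks, the 5 widest last exon overlaps, the longest and shortest members and a list of members of known role. Zfp142, Zfp677 and the genes of the chromosome 13 run were named after their values were seen. Members, lists and comparisons were chosen with earlier results of these data known. The alternatives tried are the coverage limit, the span limit, joining of regions or peaks, placement by midpoint, the last exon, the definition of sharing and leaving out overlapping genes. Leaving out members with non-unique sequence was added after the data were seen.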

Additional observations from a re-analysis of the deposited data

How the results depend on the processing

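Of 90 recomputed values, 68 stayed within the interval of the reported value or, for counts, within 1.5 times of it. A coverage limit of 25% gave 88.0% of members in B6 and 85.8% in KI, with 6 reaching it in B6 only. A limit of 75% gave 60.5% and 55.8%, with 3 in KI only. With spans of 20 kb or longer (111 members) median coverage in KI was 73.1%, 93.7% of members had a refined peak in KI, 43.2% had a last exon peak in B6, and 8 members reached 50% in B6 only and 0 in KI only. With no span limit (337 members) 83.7% in B6 and 84.0% in KI had a refined peak, and 4 members reached 50% in KI only. In the coding part of the last exon, peaks were found in 44.2% and 39.9%. Sharing depended most on its definition. It was 13.3% of B6 and 10.8% of KI peaks with 50% of the shorter peak, 37.8% and 30.7% within 500 bp, and 75.9% and 90.3% where overlap with the other strain's broad regions also counted. Apart from these changes of definition, the cause was not tested. Leaving out overlapping genes, members with non-unique sequence, midpoints and joining moved no value beyond its interval. No paired analysis was possible because each strain has 1 pooled list, and no replicate could be left out. Region lists without heights limit the description to presence and extent.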

Other observations

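Other zinc finger families on the autosomes, of 10 kb or longer, varied in coverage. Over all genes of that length, 52.6% in B6 and 49.8% in KI had at least 50% of the span in broad regions. Of 22 genes named Zbtb plus digits, which join fingers to a BTB domain, 21 had at least 50% of the span in broad regions in B6 and 18 in KI, with medians of 93.6% and 91.1%. Of 14 Zscan or Zkscan genes, 13 and 12 did, with medians of 95.02% and 91.6%. Of 9 Klf genes, which encode Krüppel-like factors, 4 in B6 and 2 in KI did, with medians of 47.6% and 17.1%. Of 17 genes of Zfp names with letters after the digits, 9 and 8 did. A last exon peak was found in 9 of the 22 Zbtb genes in B6 and 10 in KI, in 4 and 5 of the 14 Zscan or Zkscan genes, in 3 and 2 of the Klf genes, and in 8 of the 17 lettered Zfp genes in each strain. Over all genes of that length 14.6% in B6 and 15.4% in KI had one.

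Of 7 markers of spermatogonia, 5 in B6 and 4 in KI had at least 50% coverage, with Zbtb16 at 69.1% and 37.2%. Of 6 spermatid markers, 2 did in each strain, and of 5 Leydig cell markers 1 did, Star, at 100% in both.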
